A study of Sus scrofa with 14 samples.

Results

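A set of 40 genes was examined in cultured porcine cells, either embryo-derived or reprogrammed. These genes had transcripts in cells grown in media with LIF and kinase inhibitors and few or none in cells grown in the FGF2 medium. Members were chosen on the deposited values themselves, where a normalized count is a gene's read count divided by a depth factor of its library. A member had a mean of at least 40 in each of the 4 groups grown with LIF and inhibitors and a mean below 15 in each of the 3 FGF2 groups. The rule kept 40 of 19588 genes (0.204%), of which 32 had a gene symbol and 8 were known only by their Ensembl identifiers. Of all genes, 10591 reached the upper threshold in every LIF and inhibitor group and 4904 stayed under the lower one in every FGF2 group, and the mirror-image rule (at least 40 in every FGF2 group and below 15 in every LIF and inhibitor group) also kept 40 genes.

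Polyadenylated RNA had been sequenced from 14 samples, 2 in each of 7 groups. The FGF2 medium (F) was used for pESCLC-primary, outgrowths of inner cell masses from porcine blastocysts, for pESCLC-F, embryonic stem cell-like lines A1 and A2 at passage 2, and for Lv-piPSC-F, the lentivirally reprogrammed ID6 line, whose second sample has a different line code in its label and was at passage 46. FLB2i medium holds FGF2, LIF, BMP4 and inhibitors of GSK3 and of the TGFB receptors, and FL6i medium holds FGF2, LIF and inhibitors of p38 (MAPK14), JNK (MAPK8), MEK, GSK3, the TGFB receptors and BMP signalling. pESCLC-FL6i was line C2 at passages 3 and 9, from cells in F medium moved into FL6i at day 8 of culture, and pESCLC-FLB2i was line B1 at passages 3 and 6, from FL6i cells moved into FLB2i at day 18. Epi-piPSC lines came from fetal fibroblasts that received episomal plasmids with human reprogramming factors, which the study found to persist in the lines. Epi-piPSC-FLB2i was line B5 at passages 9 and 12, and Epi-piPSC-FL6i was lines C10 at passage 12 and C11 at passage 11. Cells were kept on irradiated mouse embryonic fibroblasts. In 3 of the 4 LIF and inhibitor groups both samples were thus passages of 1 line, so the spread between duplicates there is that of passages. The F groups differ from the other groups in basal medium, supplements, passage and line at once, and these cannot be told apart.

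Neurons release transmitter when calcium enters through voltage-gated channels and binds synaptotagmins on vesicles docked at the active zone, and neuronal splicing factors such as the NOVA and SRRM proteins set which exons the transcripts of these proteins keep. In cells that are not neurons, many such genes are held silent by the repressor REST, which binds a long DNA element named RE1 near them. Pluripotent cells are recognised by other transcripts, among them those of NANOG, LIN28A, CDH1 and EPCAM.

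The label of a pluripotent cell was first checked against such markers. NANOG, a core pluripotency factor, had group means of 233 in pESCLC-primary, 291 in pESCLC-F, 632 in Lv-piPSC-F, for pESCLC 22.7 in FLB2i and 11.8 in FL6i, and for Epi-piPSC 31.4 in FLB2i and 0.982 in FL6i. The paper's qPCR gave the other order for NANOG in Epi-piPSC, higher in FL6i than in FLB2i, while all these lines stained negative for it. For pESCLC in both media the paper reports that POU5F1, NANOG and SOX2 staining persisted, and that RNA of most pluripotency genes fell. CDH1, the epithelial cadherin, had means of 10314 in pESCLC-primary, 12084 in pESCLC-F, 21008 in Lv-piPSC-F, for pESCLC 70.7 in FLB2i and 51.4 in FL6i, and for Epi-piPSC 1342 in FLB2i and 8178 in FL6i. LIN28A, an RNA-binding protein of early embryonic cells, had means of 5249 in pESCLC-primary, 5386 in pESCLC-F, 7910.0 in Lv-piPSC-F, for pESCLC 16.6 in FLB2i and 11.5 in FL6i, and for Epi-piPSC 2075 in FLB2i and 10748 in FL6i. Transcripts of NANOG, CDH1 and LIN28A were thus low in the pESCLC-FLB2i and pESCLC-FL6i groups, and CDH1 and LIN28A but not NANOG were abundant in Epi-piPSC-FL6i. These genes do not stand for every pluripotency gene, and CDH1 also marks epithelia in general. In the longer pluripotency list described below, 12 of 16 tested genes were lower than in F by limma and 0 higher. ZIC2 was the most abundant gene of that list in every pESCLC sample grown with LIF and inhibitors, at 2088 to 8424 normalized counts. The episomal plasmids carried human LIN28, and the paper reports plasmid LIN28 in Epi-piPSC lines. Whether plasmid transcripts were counted as LIN28A in the Epi-piPSC groups was not tested. POU5F1 and SOX2 were not analysed here. Below, group names are those of the labels and carry no judgement of the cell state.

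Some libraries stood apart from their duplicates. Reads on genes ranged from 6193659 in the second pESCLC-FL6i sample to 58878377 in the second Lv-piPSC-F sample, so that 1 read was worth 2.62 and 0.348 normalized counts in these. Over genes, the log2 values of duplicates correlated at r = 0.913 in pESCLC-FL6i, 0.924 in Lv-piPSC-F and 0.959 in pESCLC-FLB2i, against 0.980 to 0.989 in the other 4 groups. Transcripts of 15 fibroblast and feeder type genes summed to 42664 normalized counts in the first pESCLC-FL6i sample and 386775 in the second, where COL1A1 alone had 155568. The same genes summed to 57623 and 196181 in the 2 pESCLC-FLB2i samples, with VIM as the highest gene in both. Where a count of called members moved by over 1.5 times without 1 of these libraries, this is said there. The ranges are given at the end, with the processing.

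Since the rule used them, the levels against the F groups are a description. Across members, the median of the group means was 4.97 normalized counts in pESCLC-primary, 1.57 in pESCLC-F and 6.13 in Lv-piPSC-F, against 280 in pESCLC-FLB2i, 534 in pESCLC-FL6i, 108 in Epi-piPSC-FLB2i and 110.2 in Epi-piPSC-FL6i. In 39 of the 40 members all 8 LIF and inhibitor samples were above all 6 F samples, a pattern that 3.92% of the 19588 genes showed and that the choice of members largely fixes. The exception was OTUD7A, a deubiquitinase. It had 1.01 to 15.4 normalized counts in the 6 F samples (median 4.0), 79.2 and 11.8 in pESCLC-FLB2i, 113 and 152 in pESCLC-FL6i, and for the Epi-piPSC lines 76.6 and 38.7 in FLB2i and 134 and 123 in FL6i, so the second pESCLC-FLB2i sample lay under the first Lv-piPSC-F sample. No member was without a read in all 6 F samples, 13 members reached 15 in at least 1 F sample, and 11 were under 40 in at least 1 LIF and inhibitor sample. The samples were bulk RNA, in which fewer cells of a type and less RNA per cell cannot be told apart.

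**Figure D1:**
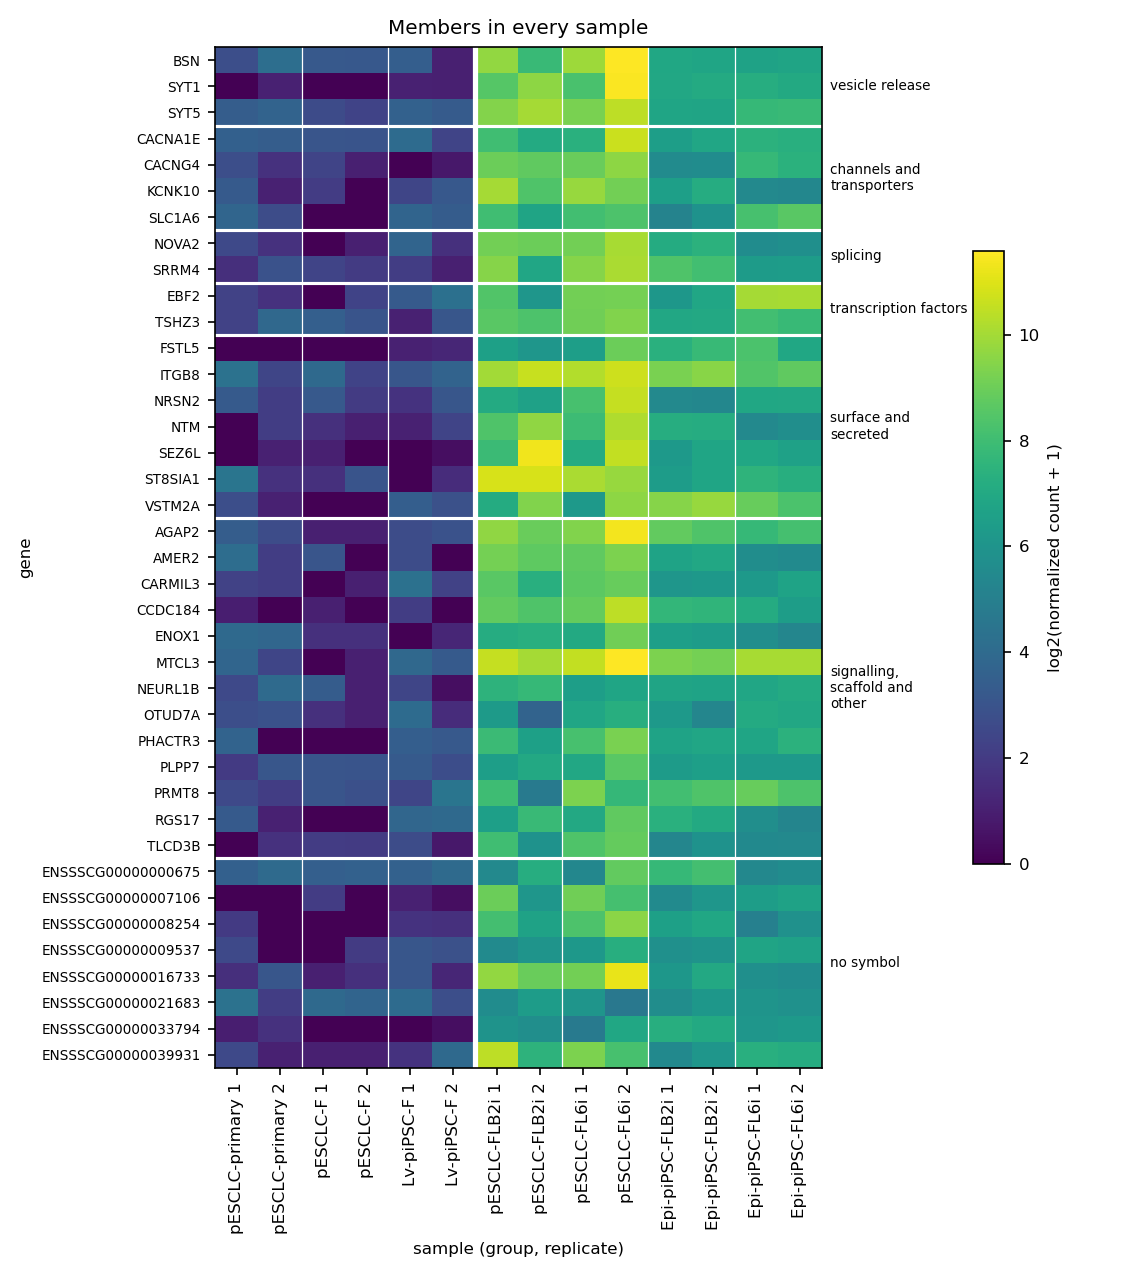
Heat map of log2(normalized count + 1) for 39 of the 40 members (vertical axis, grouped by role) in the 14 samples (horizontal axis, by group and replicate); the thick white line parts the 6 F samples from the 8 samples in LIF and inhibitors. The F side is dark for every member drawn, and within the other side the second pESCLC-FL6i sample is the brightest for many members.

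Together the 40 genes took 0.000609% to 0.00155% of the normalized counts of each F library. Their share was 0.0365% to 0.0441% in the 4 Epi-piPSC samples and 0.0927% to 0.112% in both pESCLC-FLB2i samples and the first pESCLC-FL6i sample. The second pESCLC-FL6i sample had 0.233%. No sample of the F groups overlapped any other sample in this share.

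**Figure D2:**
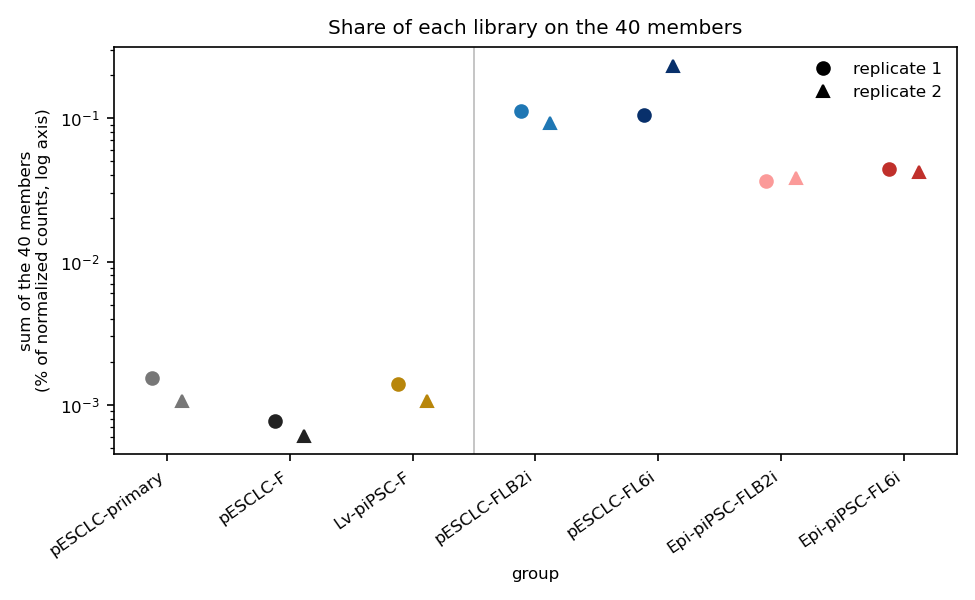
Sum of the 40 members as a percent of all normalized counts of each library (logarithmic vertical axis) by group, with 1 point per sample. The 6 F samples lie between 0.000609% and 0.00155%, the Epi-piPSC samples between 0.0365% and 0.0441%, and the pESCLC samples in LIF and inhibitors between 0.0927% and 0.233%.

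The members nearest to the upper threshold were NRSN2, with a lowest group mean of 41.5, KCNK10 with 41.7 and TLCD3B with 43.7. Just outside it were ENSSSCG00000003781 with 39.6, the homeobox gene GBX2 with 37.9 and the zinc finger gene ZNF536 with 37.5. Near the lower threshold were the members ENOX1, with a highest F group mean of 13.9, and RGS17 with 13.9, and the nearest genes outside were PTPRN2 with 15.1, PHF7 with 15.2 and PNMA2 with 15.6.

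In the RefSeq annotation of Sscrofa11.1, 30 members could be placed by symbol. They lay on 13 chromosomes, with at most 5 on any of them, and no pair of members started within 200000 bases of each other. Their median gene length was 91541 bases against 29468.5 for the 13112 genes placed, and 14 of the 30 (46.7%) were longer than 100000 bases against 18.8% of all genes. NTM was the longest at 1001784 bases and CCDC184 the shortest at 2342.

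Promoters, taken from 250 bases before to 50 bases after the annotated start, were searched on both strands for motifs of factors downstream of the media. CTTTGAT, a TCF/LEF motif, was found in 1 of 30 members (3.33%) and in 2.02% of all genes, TTCNNNGAA, a STAT motif, in 1 of 30 (3.33%) and in 6.44%, and GTCTAGAC, a SMAD motif, in no member and in 0.206%. The RE1 consensus, added after the members were known, was found within 1000 bases of the start in 1 of 30 members (3.33%) and in 0.732% of 13112 genes, and within 5000 bases in 2 of 30 (6.67%) and in 2.08% of 13108 genes. With 1 or 2 members holding each motif, the shares say little about the set. The 4 matches are printed here with 4 bases on either side, 5′ to 3′ on the minus strand, with the motif in capitals, because they are the only places where the searched letters occurred; a match is not shown to be bound. The SYT5 match lies at chr6:59388848-59388863, 151 bases after the start, the PRMT8 match at chr5:66753120-66753135, 1146 bases after it, the ITGB8 match at chr9:89341996-89342002, 249 bases before it, and the NRSN2 match at chr17:34844623-34844631, 126 bases before it.
SYT5, RE1 consensus: gtgaTCAGCACCCAGGACAGcgcc
PRMT8, RE1 consensus: acctTCAGAACCAGGGACAGcgcc
ITGB8, CTTTGAT: cctcCTTTGATggcc
NRSN2, TTCNNNGAA: ggaaTTCCCAGAAaagg

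Of the members with a symbol, 3 act in vesicle release. SYT1, the calcium sensor of fast transmitter release, spans chr5:101871313-102394310 on the minus strand. It had 0 to 1.1 normalized counts in the 6 F samples (median 0.522), 370.1 and 789 in pESCLC-FLB2i, 301 and 2958 in pESCLC-FL6i, and for the Epi-piPSC lines 123 and 136 in FLB2i and 149.6 and 129.9 in FL6i. Transcripts of SYT1 were thus at most 3 reads in any F library, and the second pESCLC-FL6i sample was far above its duplicate. SYT5 (chr6:59381649-59389014), a relative of SYT1 on dense-core and other vesicles, had 4.05 to 12.02 normalized counts in the 6 F samples (median 9.44), 699 and 1041 in pESCLC-FLB2i, 604 and 1386 in pESCLC-FL6i, and for the Epi-piPSC lines 109.7 and 109 in FLB2i and 214 and 229 in FL6i. Its 4 pESCLC samples in LIF and inhibitors were all above its 4 Epi-piPSC samples. BSN (chr13:32106967-32203461), the active zone scaffold bassoon, had 1.04 to 17.5 normalized counts in the 6 F samples (median 8.23), 833 and 234 in pESCLC-FLB2i, 939.7 and 3076 in pESCLC-FL6i, and for the Epi-piPSC lines 118 and 113 in FLB2i and 102 and 109 in FL6i. Both Epi-piPSC groups were near 110 for this gene, while the duplicates of both pESCLC groups in LIF and inhibitors differed by over 3-fold.

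**Figure D3:**
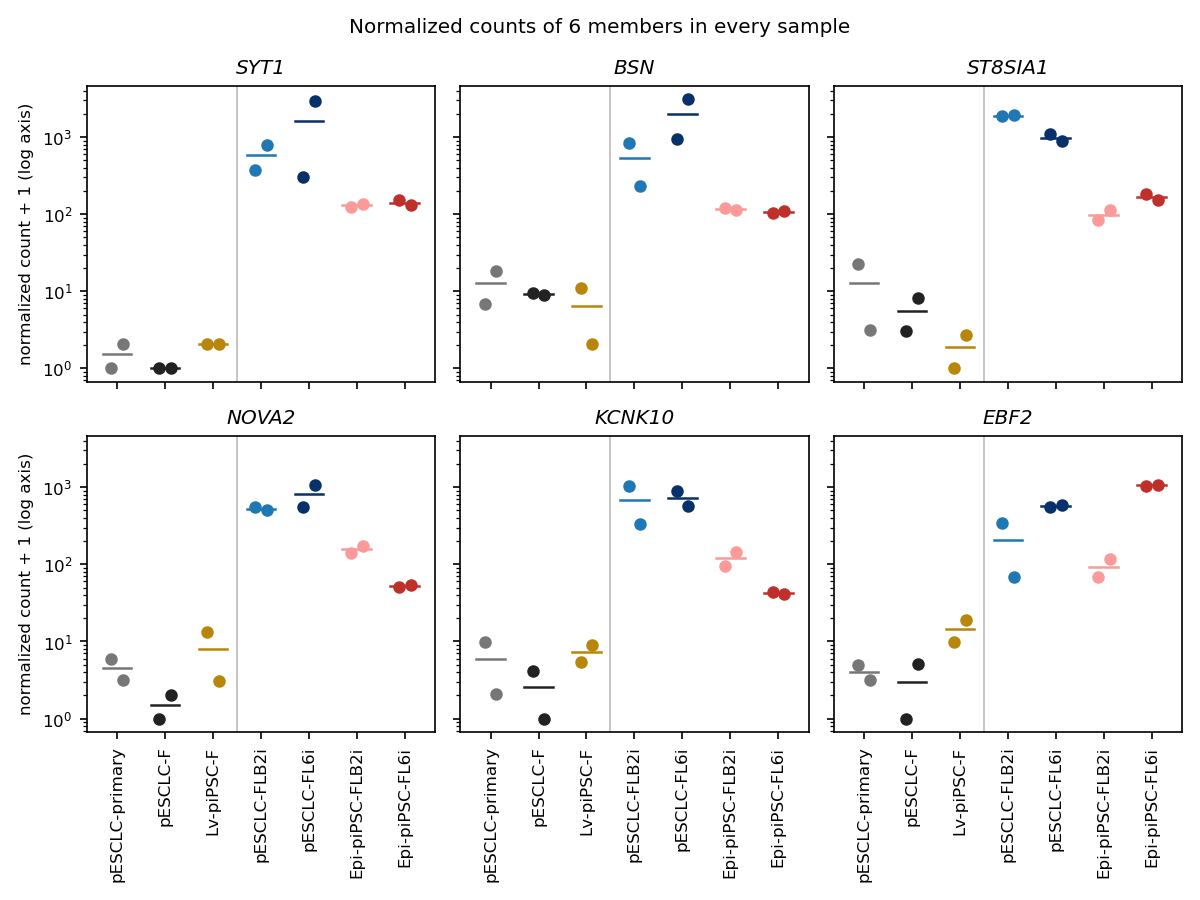
Normalized count + 1 (logarithmic vertical axis) of SYT1, BSN, ST8SIA1, NOVA2, KCNK10 and EBF2 by group; points are the 2 samples of a group and lines their mean. The 6 F samples lie under the 8 others for each gene, duplicates in the Epi-piPSC groups differ by less than 2-fold, and the order of the groups differs among genes.

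Channels and transporters gave 4 members. CACNA1E, the pore-forming subunit of R-type calcium channels, had 4.18 to 15.4 normalized counts in the 6 F samples (median 8.58), 263 and 133 in pESCLC-FLB2i, 160.5 and 1624 in pESCLC-FL6i, and for the Epi-piPSC lines 89.00 and 113 in FLB2i and 175 and 158 in FL6i. CACNG4, an auxiliary subunit of AMPA-type glutamate receptors, had 0 to 5.9 normalized counts in the 6 F samples (median 1.6), 506 and 434 in pESCLC-FLB2i, 482 and 786 in pESCLC-FL6i, and for the Epi-piPSC lines 46.6 and 48.9 in FLB2i and 217 and 168 in FL6i. For CACNG4 the 4 LIF and inhibitor groups did not overlap except the 2 pESCLC groups. KCNK10, a background potassium channel, had 0 to 8.85 normalized counts in the 6 F samples (median 3.77), 1029 and 334 in pESCLC-FLB2i, 888 and 563 in pESCLC-FL6i, and for the Epi-piPSC lines 93.1 and 145 in FLB2i and 43.4 and 39.96 in FL6i. SLC1A6, a glutamate transporter of cerebellar Purkinje cells, had 0 to 12.8 normalized counts in the 6 F samples (median 7.43), 262 and 109 in pESCLC-FLB2i, 269.5 and 325 in pESCLC-FL6i, and for the Epi-piPSC lines 35.2 and 59.02 in FLB2i and 298 and 392 in FL6i. KCNK10 was lowest in Epi-piPSC-FL6i, the group in which SLC1A6 was highest on average.

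Regulators of neuronal splicing were NOVA2 and SRRM4. NOVA2 (chr6:52248587-52278519), a KH-domain splicing factor, had 0 to 12.1 normalized counts in the 6 F samples (median 2.14), 556 and 499.6 in pESCLC-FLB2i, 554 and 1074 in pESCLC-FL6i, and for the Epi-piPSC lines 139 and 172 in FLB2i and 49.2 and 52.9 in FL6i. SRRM4 (chr14:33653542-33818859), which promotes the inclusion of neural microexons, had 1.04 to 6.56 normalized counts in the 6 F samples (median 3.17), 704 and 113 in pESCLC-FLB2i, 721 and 1111 in pESCLC-FL6i, and for the Epi-piPSC lines 334 and 267 in FLB2i and 82.1 and 82.9 in FL6i. Both had their lowest LIF and inhibitor group mean in Epi-piPSC-FL6i. The transcription factors among the members were EBF2 and TSHZ3. EBF2 (chr14:9816992-10027574), of the early B-cell factor family, had 0 to 18.1 normalized counts in the 6 F samples (median 3.99), 348 and 67.00 in pESCLC-FLB2i, 549.6 and 579 in pESCLC-FL6i, and for the Epi-piPSC lines 68.3 and 115 in FLB2i and 1038 and 1077 in FL6i, and its highest values were those of Epi-piPSC-FL6i. TSHZ3 (chr6:41345466-41429239), a teashirt zinc finger protein, had 1.1 to 14.2 normalized counts in the 6 F samples (median 7.37), 392 and 328 in pESCLC-FLB2i, 536 and 671 in pESCLC-FL6i, and for the Epi-piPSC lines 121 and 128 in FLB2i and 273 and 223 in FL6i.

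Surface and secreted proteins formed a group of 7 members. ST8SIA1 (chr5:51211312-51364226), the sialyltransferase that makes the ganglioside GD3, had 0 to 21.6 normalized counts in the 6 F samples (median 2.14), 1869 and 1907 in pESCLC-FLB2i, 1093 and 880.2 in pESCLC-FL6i, and for the Epi-piPSC lines 83.8 and 112 in FLB2i and 182 and 152 in FL6i. It was among the 5 members whose highest group was pESCLC-FLB2i. Its pESCLC values in LIF and inhibitors were all above 800 and its Epi-piPSC values all under 200. SEZ6L, a membrane protein of neurons related to SEZ6, had 0 to 1.09 normalized counts in the 6 F samples (median 0.174), 235 and 2601 in pESCLC-FLB2i, 137 and 1467 in pESCLC-FL6i, and for the Epi-piPSC lines 75.5 and 113 in FLB2i and 118 and 98.9 in FL6i, so its duplicates differed by about 11-fold in both pESCLC groups. ITGB8, an integrin subunit that binds latent TGFB together with alpha V, had 4.05 to 19.7 normalized counts in the 6 F samples (median 9.77), 994 and 1551 in pESCLC-FLB2i, 1226 and 1650.5 in pESCLC-FL6i, and for the Epi-piPSC lines 606 and 739.6 in FLB2i and 346 and 427 in FL6i. VSTM2A, a secreted immunoglobulin-domain protein, had 0 to 9.9 normalized counts in the 6 F samples (median 3.5), 138 and 665 in pESCLC-FLB2i, 76.6 and 791 in pESCLC-FL6i, and for the Epi-piPSC lines 713 and 881 in FLB2i and 472 and 315 in FL6i. It was the highest in Epi-piPSC-FLB2i, unlike most members. NTM, a neural adhesion molecule, NRSN2, a vesicle membrane protein, and FSTL5, a follistatin-like secreted protein, ranged from 40.6 to 1512 normalized counts over the LIF and inhibitor samples and reached at most 8.85 in F.

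Signalling, scaffold and other roles covered 14 symbols, of which 13 are described. MTCL3, a microtubule crosslinking factor, had 0 to 14.3 normalized counts in the 6 F samples (median 6.54), 1537 and 1028 in pESCLC-FLB2i, 1454 and 2984 in pESCLC-FL6i, and for the Epi-piPSC lines 636 and 580.0 in FLB2i and 1063 and 1082 in FL6i. AGAP2, a GTPase-activating protein of neurons, had 1.01 to 9.84 normalized counts in the 6 F samples (median 5.48), 817 and 496 in pESCLC-FLB2i, 676 and 2669.6 in pESCLC-FL6i, and for the Epi-piPSC lines 451 and 337 in FLB2i and 216 and 287 in FL6i. For both of these the second pESCLC-FL6i sample had the highest value. AMER2, a membrane protein that binds APC and acts in WNT signalling, had 0 to 16.7 normalized counts in the 6 F samples (median 4.39), 573 and 415 in pESCLC-FLB2i, 427 and 626 in pESCLC-FL6i, and for the Epi-piPSC lines 103 and 123 in FLB2i and 50.2 and 44.95 in FL6i, with all 4 Epi-piPSC values under all 4 pESCLC values in LIF and inhibitors. PRMT8, a membrane-bound arginine methyltransferase of the brain, had 3.28 to 21.9 normalized counts in the 6 F samples (median 5.49), 254 and 25.6 in pESCLC-FLB2i, 636 and 207 in pESCLC-FL6i, and for the Epi-piPSC lines 266 and 338 in FLB2i and 475 and 324 in FL6i. PRMT8 thus came close to its highest F value in the second pESCLC-FLB2i sample. RGS17, PHACTR3, CARMIL3, NEURL1B, PLPP7, ENOX1, TLCD3B and CCDC184 had LIF and inhibitor values from 38.0 (RGS17) to 1391 (CCDC184) and F values of at most 18.7 (CARMIL3). The 8 members without a symbol ranged from 23.6 to 2381 normalized counts in LIF and inhibitors, with ENSSSCG00000016733 at the upper end, and reached at most 19.7 in F.

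Among the LIF and inhibitor groups the members were not level. The highest group mean was that of pESCLC-FL6i in 30 members, of pESCLC-FLB2i in 5, of Epi-piPSC-FLB2i in 3 and of Epi-piPSC-FL6i in 2, and the lowest was that of Epi-piPSC-FL6i in 18, Epi-piPSC-FLB2i in 15, pESCLC-FLB2i in 5 and pESCLC-FL6i in 2. The highest group mean was a median of 7.41 times the lowest, from 1.5 to 28.9 times. Duplicates differed by more than 2-fold for 20 members (50%) in pESCLC-FLB2i and 24 (60%) in pESCLC-FL6i, against 17.2% and 34.0% of all genes with a mean of at least 40 in the group. In Epi-piPSC-FLB2i no member and in Epi-piPSC-FL6i only FSTL5 differed by that much, against 1.25% and 1.09% of all such genes. The second pESCLC-FL6i sample had a median of 2.06 times the first over the members and 1.03 times over all such genes, and in pESCLC-FLB2i these ratios were 0.730 and 0.974. Thus 34 of 40 members were higher in the second pESCLC-FL6i sample than in the first, against 14 of 40 in pESCLC-FLB2i. Fibroblast and feeder type transcripts were higher in the second sample of both pairs, so they ran with most members in pESCLC-FL6i and against most of them in pESCLC-FLB2i; their part in the differences between duplicates was not tested.

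The members were tested only among the LIF and inhibitor groups, whose differences the rule did not use, although it kept each member at 40 or more in every group. They used limma on log2(normalized count + 1) over 15248 genes, and genes with p of at most 0.05 after Benjamini-Hochberg adjustment were called. The first question was whether FL6i and FLB2i media differed in Epi-piPSC. There 4 members were higher and 2 lower in FL6i (15%), against 9.21% of all genes tested higher, 9.92% lower and 19.1% called in either direction. The called members were higher for EBF2 (log2 difference 3.56, SE 0.713, adjusted p = 0.0197), SLC1A6 (log2 difference 2.88, SE 0.493, adjusted p = 0.0127), CACNG4 (log2 difference 1.98, SE 0.326, adjusted p = 0.0113) and TSHZ3 (log2 difference 0.98, SE 0.257, adjusted p = 0.0427), and lower for NOVA2 (log2 difference -1.58, SE 0.362, adjusted p = 0.0292) and AMER2 (log2 difference -1.23, SE 0.327, adjusted p = 0.0446). Both FL6i samples were above both FLB2i samples in 15 members and below them in 17, against 39.4% and 41.4% of all genes tested. The count of called members depended on the samples in the fit, as did the count over all genes. Both fell without any single Epi-piPSC sample and rose without either pESCLC-FL6i sample, over the ranges given below with the processing. With the 4 Epi-piPSC samples alone 26 members and 8697 genes were called. The 2 FL6i samples were different lines and the 2 FLB2i samples were not, and line and medium cannot be told apart.

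In pESCLC no member was called between FL6i and FLB2i by limma (10 had an unadjusted p under 0.05), against 0.0131% of all genes. On the recovered reads edgeR also called 0 members and DESeq2 called 3, of which 1 was higher and 2 lower in FL6i. The differences were positive in 34 of the 40 members, with a median of 0.80 on the log2 scale against 0.00 over all genes. Averaged over the members, log2(normalized count + 1) was 8.22 and 7.70 in the pESCLC-FLB2i samples and 8.16 and 9.28 in the pESCLC-FL6i samples. The first samples, both at passage 3, were thus nearly level, and the media stood apart in the second samples, at passages 6 and 9. Both FL6i samples were above both FLB2i samples in 13 members and below in 2, against 18.5% and 17.2% of all genes tested. Without the first pESCLC-FL6i sample, so that the shallow second one stood alone, more members and more of all genes were called. Leaving out the second sample raised only the count over all genes. The ranges are given below with the processing. ST8SIA1 (log2 difference -0.94, SE 0.248, adjusted p = 0.262) and NEURL1B (log2 difference -0.97, SE 0.311, adjusted p = 0.314) were the 2 members with both FL6i samples under both FLB2i samples. Each medium was 1 line here, and line and medium cannot be told apart.

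Origin was compared within each medium. The Epi-piPSC and pESCLC groups compared also differed in line and passage, and origin, line and passage cannot be told apart. In FLB2i, 6 members were lower in Epi-piPSC than in pESCLC and none was higher by limma (15% lower), against 2.37% of all genes higher, 4.64% lower and 7% called in either direction. By edgeR and DESeq2 too, no member was higher, and 16 members had an unadjusted p under 0.05 in limma in either direction. Among the 6 called members the largest difference was that of ST8SIA1 (log2 difference -4.27, SE 0.248, adjusted p = 0.00286), followed by CACNG4 (log2 difference -3.27, SE 0.326, adjusted p = 0.00633), SYT5 (log2 difference -2.95, SE 0.416, adjusted p = 0.0156), AMER2 (log2 difference -2.10, SE 0.327, adjusted p = 0.0188), NOVA2 (log2 difference -1.77, SE 0.362, adjusted p = 0.0385) and TSHZ3 (log2 difference -1.52, SE 0.257, adjusted p = 0.0235). Some members that did not pass had larger differences than several of these, among them SEZ6L at -3.07 and KCNK10 at -2.33. All 6 had both Epi-piPSC samples under both pESCLC samples, as did 25 members in all, against 33% of all genes tested, while 5 members had them above, against 30.2%. The median difference over members was -0.92 on the log2 scale, against -0.02 over all genes. DESeq2 called 15 members and 2817 genes. In limma fewer members and genes were called without any single Epi-piPSC or pESCLC-FLB2i sample. Without either pESCLC-FL6i sample more of both were called, and a member was then called higher. The ranges are given below with the processing.

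In FL6i, 20 of the 40 members (50%) were lower in Epi-piPSC than in pESCLC and none was higher, against 16.8% of all genes lower, 1693 of the 15248 genes tested higher and 27.9% called in either direction. None was called higher by edgeR or DESeq2 either, which called 21 and 27 members lower, and 25 members had an unadjusted p under 0.05 in limma. Of the splicing factors, NOVA2 (log2 difference -3.89, SE 0.362, adjusted p = 0.00157) and SRRM4 (log2 difference -3.42, SE 0.778, adjusted p = 0.0213) were both lower. Among vesicle genes BSN (log2 difference -4.0, SE 0.721, adjusted p = 0.0104) and SYT5 (log2 difference -2.04, SE 0.416, adjusted p = 0.0152) were lower and SYT1 did not pass (log2 difference -2.75, SE 0.98, adjusted p = 0.0786). Of the channels and transporters KCNK10 (log2 difference -4.05, SE 0.565, adjusted p = 0.00474) and CACNG4 (log2 difference -1.68, SE 0.326, adjusted p = 0.0131) were lower. Surface proteins contributed ST8SIA1 (log2 difference -2.55, SE 0.248, adjusted p = 0.00181), ITGB8 (log2 difference -1.89, SE 0.289, adjusted p = 0.00632), NTM and NRSN2, the transcription factors TSHZ3 (log2 difference -1.28, SE 0.257, adjusted p = 0.0147), and the signalling and other genes AMER2 (log2 difference -3.42, SE 0.327, adjusted p = 0.00173), CCDC184, TLCD3B, ENOX1, AGAP2, RGS17 and CARMIL3. ENSSSCG00000016733 had the largest difference (log2 difference -4.48, SE 0.696, adjusted p = 0.00659), and ENSSSCG00000008254 was also lower. EBF2, the other transcription factor, had a positive difference that did not pass (log2 difference 0.91, SE 0.713, adjusted p = 0.363). Both Epi-piPSC samples were under both pESCLC samples in 28 members and above in 2, against 37.4% and 32.3% of all genes tested. Without either Epi-piPSC-FL6i sample far fewer members and genes were called, and without the first pESCLC-FL6i sample more of both. Without the second pESCLC-FL6i sample a member was called higher. The ranges are given below with the processing.

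**Figure D4:**
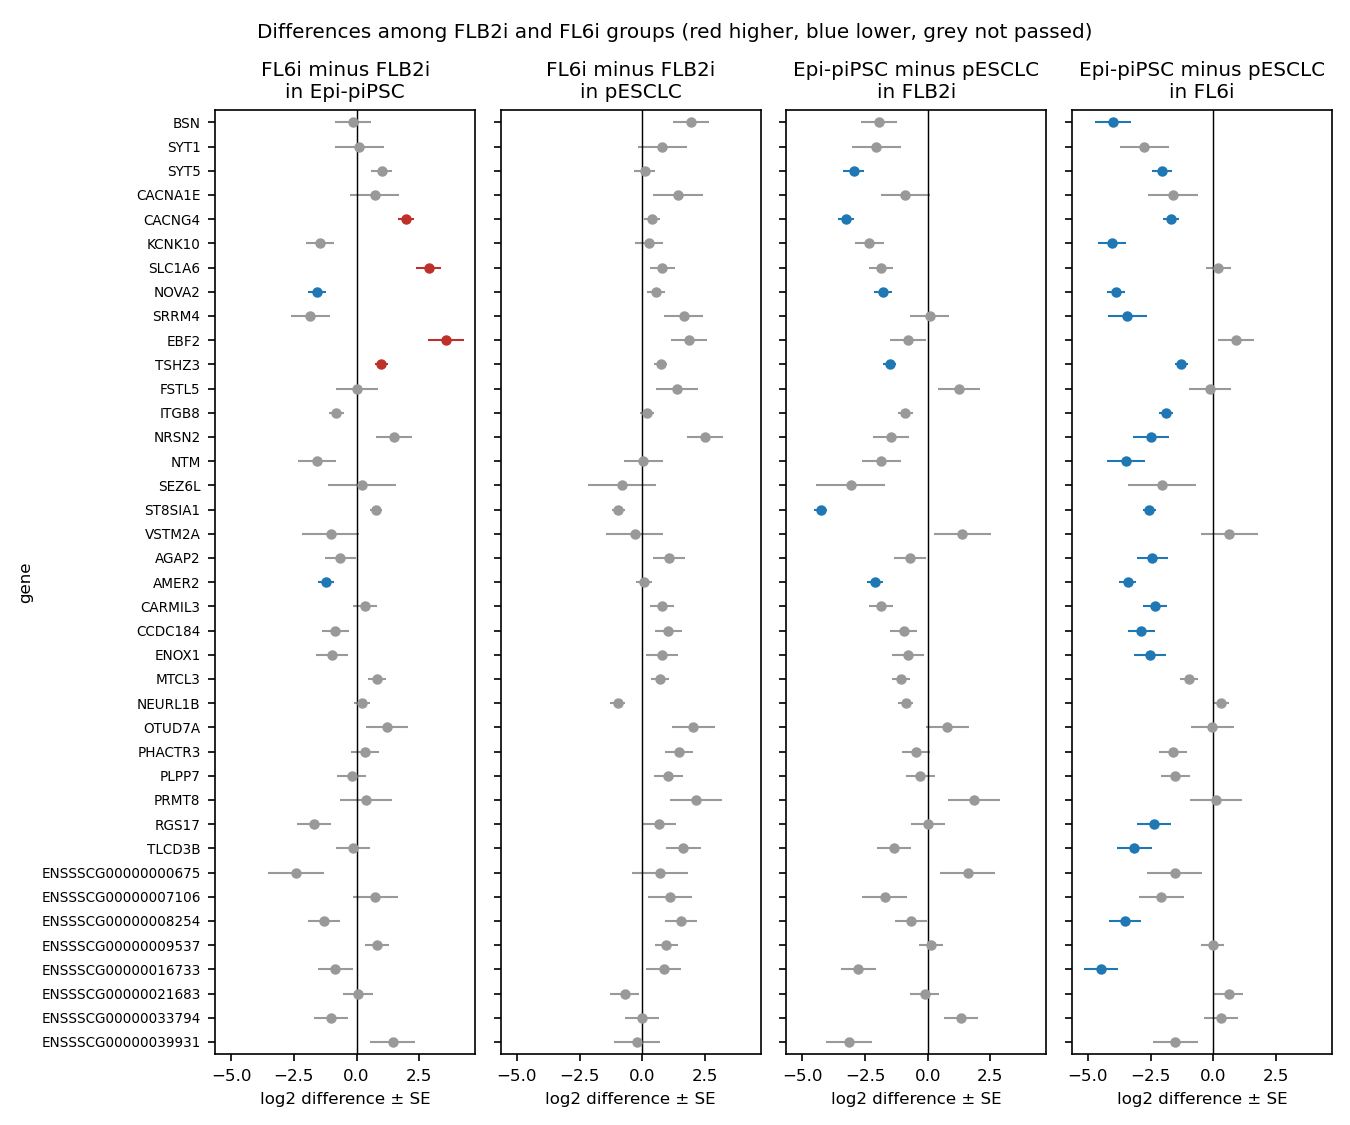
Log2 difference of 39 of the 40 members (vertical axis) in 4 comparisons among the LIF and inhibitor groups, with the standard error from limma as bars; coloured points had an adjusted p of at most 0.05. In Epi-piPSC 4 members were higher and 2 lower in FL6i, in pESCLC none was called, and against pESCLC the Epi-piPSC lines had 6 lower members in FLB2i and 20 in FL6i.

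Whether the effect of the medium differed between Epi-piPSC and pESCLC was tested by an interaction term. No member passed in limma (11 had an unadjusted p under 0.05), against 3.19% of all genes (1.16% higher and 2.03% lower), and none in edgeR, while DESeq2 called 7. ST8SIA1 came nearest, with a difference of 1.72 (SE 0.351, limma adjusted p = 0.0557). More members and more of all genes were called without either pESCLC-FL6i sample. Without the first pESCLC-FLB2i sample more members but fewer of all genes were called. The ranges are given below with the processing. In 6 of the 40 members (15%) the samples of the 2 media did not overlap in either origin and stood in opposite orders, against 9.24% of all genes tested.

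The other genes of these pathways were taken from lists and tested, over all 14 samples, as the mean of the 4 LIF and inhibitor groups minus the mean of the 3 F groups. This contrast called 50.7% of 16028 genes (24.7% higher and 25.9% lower), with a median of -0.02 over all genes. Of 28 neuronal and synaptic genes 24 were higher and 1 lower, with a median log2 difference of 3.16. ELAVL3, a neuronal RNA-binding protein, was 8.12 higher (SE 0.526, adjusted p = 1.42e-06), with group means of 2.46 in pESCLC-primary, 2.02 in pESCLC-F, 42.4 in Lv-piPSC-F, for pESCLC 1434 in FLB2i and 3492 in FL6i, and for Epi-piPSC 1056 in FLB2i and 2031 in FL6i. STMN2, a microtubule regulator of growing axons, was 7.55 higher (SE 0.245, adjusted p = 7.85e-08), with means of 20.5 in pESCLC-primary, 61.4 in pESCLC-F, 171 in Lv-piPSC-F, for pESCLC 19976 in FLB2i and 15104 in FL6i, and for Epi-piPSC 1749 in FLB2i and 27517 in FL6i. INA, an intermediate filament of neurons, was 6.51 higher and GRIA2, an AMPA receptor subunit, 6.14 higher, while CHGB, a granin of secretory granules, was lower, with a difference of -1.72 (adjusted p = 0.0228). SYN1 and STX1A did not pass, and CHGB did not when the second pESCLC-primary sample was left out. With the 8 embryo-derived samples alone 25 were higher and 1 lower, and with the 6 induced samples alone 14 were higher and 2 lower. The list was written with the members known.

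Relatives of members were split. Of 13 other synaptotagmins 5 were higher by limma and 6 each by edgeR and DESeq2, and none was lower by any of these. By limma SYT11 (log2 difference 7.55, adjusted p = 2.69e-06) and SYT4 (5.05, adjusted p = 1.45e-05) led, and 8 of the 13 did not pass. Of all 13, limma called 3 higher with the induced samples alone and 7 with the embryo-derived samples alone. Of 20 other calcium channel and gamma subunits 12 were higher and 1, CACNA1D, was lower, with CACNG7 (6.19, adjusted p = 4.64e-07) and CACNA1A (4.79, adjusted p = 5.36e-06) the largest. With the embryo-derived samples alone 10 were higher and 0 lower, and with the induced samples alone 8 were higher and 1 lower. Of 42 close paralogues and partners 22 were higher and 10 lower (15 and 8 with the induced samples alone, 23 and 5 with the embryo-derived samples alone). NOVA1 (3.86, adjusted p = 4.24e-07), SRRM3 (5.57), TSHZ1 (5.44), ST8SIA3 (6.28), EBF1 (3.96) and EBF3 (5.05) were higher. SLC1A1, another glutamate transporter, had a difference of -5.59 and the integrins ITGB3 and ITGB1 of -3.03 and -0.94. PTBP1, which holds neuronal exons out of transcripts elsewhere, was lower over the 4 groups (-0.93, adjusted p = 0.00194), and its neuronal relative PTBP2 was higher (0.74, adjusted p = 0.0489). The group means of PTBP1 were 17607 in pESCLC-primary, 17045 in pESCLC-F, 17278 in Lv-piPSC-F, for pESCLC 7265 in FLB2i and 4801 in FL6i, and for Epi-piPSC 12195 in FLB2i and 17845 in FL6i, so Epi-piPSC-FL6i was at the F level. Those of PTBP2 were 922 in pESCLC-primary, 842 in pESCLC-F, 1649 in Lv-piPSC-F, for pESCLC 2699.7 in FLB2i and 4509 in FL6i, and for Epi-piPSC 1065 in FLB2i and 1092 in FL6i, and both Epi-piPSC groups lay within the F range. Among 6 partners of REST, RCOR3 was higher (0.48) and HDAC1 (-1.03) and SIN3A (-0.28) were lower; 3 were lower without the first pESCLC-FL6i sample and 1 without most other single samples. With the embryo-derived samples alone 0 of these partners were higher and 2 lower, and with the induced samples alone 2 were higher and 2 lower. REST itself was not analysed here.

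Of 15 neural ectoderm genes 13 were higher in the mean of the 4 LIF and inhibitor groups, OTX2 was lower and CRABP2 did not pass. In 3 of the 15 all 8 LIF and inhibitor samples were above all 6 F samples, against 3.92% of all genes in the table. ZIC1, a zinc finger factor of the neural plate, was 8.22 higher (adjusted p = 3.25e-06), but its group means of 6.94 in pESCLC-primary, 2.04 in pESCLC-F, 4.87 in Lv-piPSC-F, for pESCLC 9906 in FLB2i and 5549.9 in FL6i, and for Epi-piPSC 2272 in FLB2i and 14.1 in FL6i show that Epi-piPSC-FL6i was near the F level. PAX6, which marks neural progenitors, was 6.02 higher and NEUROG2, a proneural factor, 5.60 higher, and both proneural genes NEUROG1 and NEUROG2 had a mean of 0.965 in Epi-piPSC-FL6i. Of 10 neural crest genes 5 were higher and none lower by limma, edgeR or DESeq2, led by PAX3 (5.84). Of 25 HOX genes 20 were higher by limma and DESeq2 and 18 by edgeR, and none was lower by any of them. The neural crest genes summed to 736 and 840.1 normalized counts in Epi-piPSC-FL6i, against 445 to 748 in the pESCLC-F and Lv-piPSC-F samples, 1793 and 2322 in pESCLC-primary and 3465 to 5335 in the other 3 LIF and inhibitor groups. The HOX genes summed to 1055 and 1018 in Epi-piPSC-FL6i, against 3584 in the first pESCLC-primary sample, 182 to 481 in the other 5 F samples and 12794 to 31788 in the other 3 groups. HOXA5 had means of 199.8 in pESCLC-primary, 6.64 in pESCLC-F, 3.89 in Lv-piPSC-F, for pESCLC 711 in FLB2i and 5899.6 in FL6i, and for Epi-piPSC 3862 in FLB2i and 4.39 in FL6i, so that Epi-piPSC-FL6i stood with F for this gene. Summed over the 15 neural ectoderm genes, the 6 F samples had 12025 to 14399 normalized counts, the 4 Epi-piPSC samples 33087 to 41119 and the 4 pESCLC samples in LIF and inhibitors 84437 to 101826.

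**Figure D5:**
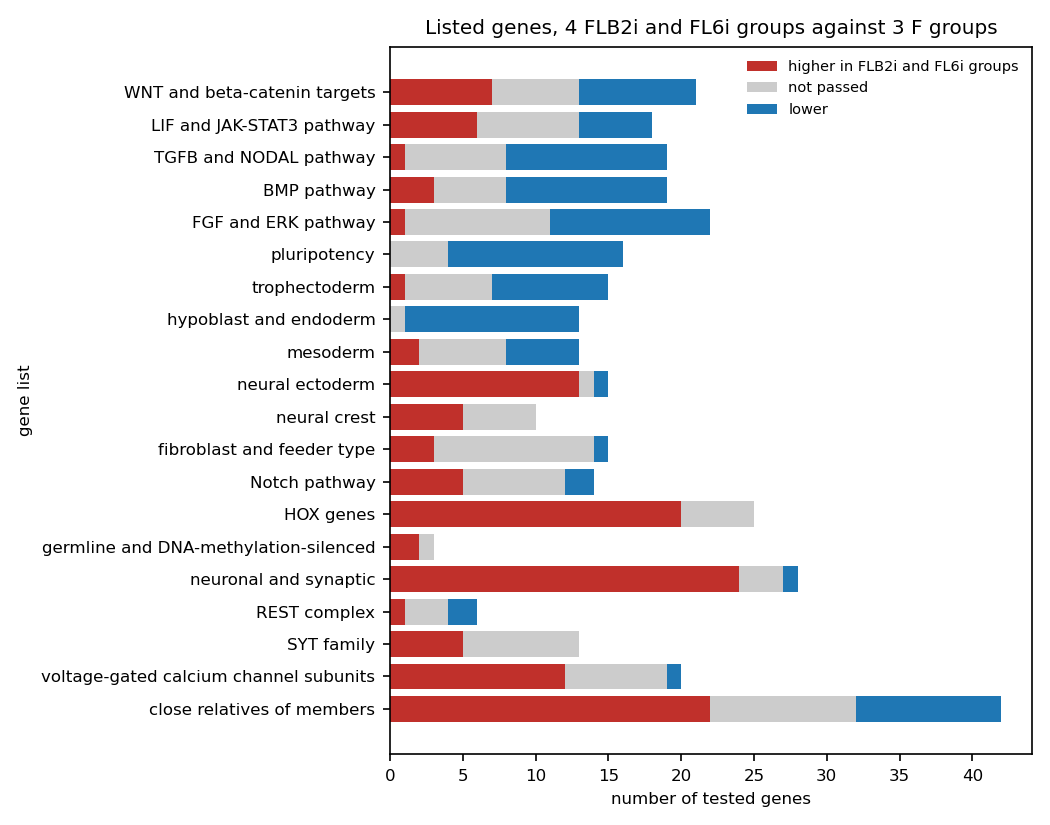
Number of tested genes in each list (horizontal axis) that were higher, lower or did not pass in the 4 LIF and inhibitor groups against the 3 F groups (limma, adjusted p of at most 0.05). Higher genes make up 24 of 28 in the neuronal and synaptic list, 20 of 25 in the HOX list and 13 of 15 in the neural ectoderm list; lower genes make up 12 of 13 in the hypoblast and endoderm list.

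The lists for other cell types were called in unequal shares, from 12 of 13 hypoblast and endoderm genes to 4 of 15 fibroblast and feeder type genes, against 50.7% of all genes tested. Of 16 pluripotency genes 12 were lower and none higher by limma, while edgeR called 1 and DESeq2 2 higher, and 4 did not pass. EPCAM had a difference of -5.86 and CDH1 of -5.16. Summed over 17 genes of the list, LIN28A among them, Epi-piPSC-FL6i had 42836 and 51121 normalized counts, within the F range of 37007 to 86414. The other 3 LIF and inhibitor groups had 5232 to 14929. Trophectoderm genes were lower in 8 of 15 cases and higher in 1, with KRT8 as the highest gene of the list in every F sample, between 44803 and 335906 normalized counts. Hypoblast and endoderm genes were lower in 12 of 13 cases and none was higher by limma, edgeR or DESeq2, summing to 164339 to 383811 in the 4 embryo-derived F samples, to 10705 and 11686 in Lv-piPSC-F and to 644 to 6341 in the LIF and inhibitor samples. With the 6 induced samples alone 4 of these genes were lower and 2 higher. AFP, which marks endoderm, had reads in both pESCLC-F samples and was at 0 in the other 12 samples. Of 15 fibroblast and feeder type genes 3 (LOX, FBN1 and VIM) were higher, FN1 was lower and 11 did not pass. For this list 5 were higher with the induced samples alone or in DESeq2, 8 were higher without the first pESCLC-FL6i sample and 6 without the second Lv-piPSC-F sample, and 3 were lower without the second pESCLC-FL6i sample and 2 without the second pESCLC-FLB2i sample. Mesoderm genes were higher in 2 and lower in 5 of 13 cases (3 lower in edgeR or without either pESCLC-primary sample, and 4 higher and 1 lower with the induced samples alone), and 2 of 3 germline genes were higher (1 in edgeR or with the embryo-derived samples alone, and 1 higher and 1 lower with the induced samples alone). The count of higher mesoderm genes also changed when single samples were left out. The part of these cell types in the members' pattern was not tested.

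The signalling pathways that the media act on were mixed. The contrast averages both media, although FLB2i holds BMP4 and FL6i holds inhibitors of BMP signalling and of MEK. Of 21 WNT and beta-catenin genes 7 were higher and 8 lower; AXIN2, a feedback target, was 2.98 higher (adjusted p = 7.51e-06) and TBXT, the brachyury factor, had a difference of -3.07. Of 18 LIF and JAK-STAT3 genes 6 were higher, among them STAT3 (1.31) and SOCS3 (1.86), and 5 lower. TGFB and NODAL genes were lower in 11 of 19 cases and higher in 1, with NODAL at -7.01 and LEFTY2 at -7.03. BMP genes were lower in 11 of 19 cases and higher in 3 (5 without the first pESCLC-FL6i sample), and FGF and ERK genes lower in 11 of 22 cases and higher in 1, with ETV4 at -3.00 (16 lower without the second pESCLC-FL6i sample). Of 14 Notch genes 5 were higher and 2 lower, and DLL3, a divergent ligand, was 6.01 higher. With the 6 induced samples alone the counts for the WNT list became 13 higher and 1 lower, for the BMP list 8 higher and 1 lower, for the Notch list 8 higher and 1 lower and for the LIF and JAK-STAT3 list 6 higher and 3 lower, and the TGFB and FGF lists each had 2 higher. With the embryo-derived samples alone the Notch list had 3 higher and 1 lower and the FGF list 2 higher. The BMP list summed to 17508 and 17394 normalized counts in Epi-piPSC-FLB2i and to 7041 and 6831 in Epi-piPSC-FL6i. For pESCLC its sums were 14769 and 28643 in FLB2i and 14696 and 17086 in FL6i. The FGF and ERK list summed to 24396 and 21870 in Epi-piPSC-FLB2i and to 13623 and 13472 in Epi-piPSC-FL6i. For pESCLC its sums were 15474 and 25384 in FLB2i and 11602 and 20599 in FL6i. In the BMP list 7 genes were lower without any one of 6 samples (the second pESCLC-primary, either pESCLC-F, the first pESCLC-FLB2i, the first Epi-piPSC-FLB2i or the second Epi-piPSC-FL6i sample).

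By Pearson's r with the mean log2 profile of the members over the 14 samples, the 5 most alike genes were FRMD4A (r = 0.990), SRGAP3 (0.984), RAB3C (0.983), CACNG7 (0.981) and ANKRD13B (0.981). These correlations describe samples that share media and lines, and carry no test. RAB3C, a vesicle GTPase, had means of 44.98 in pESCLC-primary, 33.98 in pESCLC-F, 117 in Lv-piPSC-F, for pESCLC 1533 in FLB2i and 2948 in FL6i, and for Epi-piPSC 690.1 in FLB2i and 1093 in FL6i, so it missed the rule by its F level. Over the 8 LIF and inhibitor samples alone, single members followed the mean profile to very different degrees, from r = 0.985 for BSN to -0.665 for ENSSSCG00000021683, with ENSSSCG00000033794 (-0.226), VSTM2A (-0.226) and PRMT8 (-0.143) also below 0.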

How the data were processed

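RNA from 14 samples (7 groups of 2) had been sequenced by the authors with a stranded mRNA kit, aligned to Sscrofa11.1 with TopHat2 2.1.0, counted with HTSeq at its default settings and normalized with DESeq2. The deposited signal values are these normalized counts for 19588 genes. The annotation release is not given in the sources used here and the strand option is not named beyond the default, so antisense, overlapping and near-identical genes are uncertain. In each sample 100% of values were whole multiples of 1 read (within 1e-06 reads), and the reads were recovered for DESeq2 1.42.0 and edgeR 4.0.16, run as alternatives on the count of reads; between Epi-piPSC media these called 4426 and 2588 genes, against 2918 by limma. No column was left out (0).

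Groups came from the labels. limma 3.58.1 in R 4.3.3, with a trend in the prior variance, was fitted to log2(normalized count + 1), which understates the change of low genes, keeping a gene when 2 or more samples held 10 or more normalized counts: 8 samples for the comparisons among LIF and inhibitor groups (15248 genes), 14 for the listed genes (16028). The members and lists were chosen with earlier results of these data known. By rule, the members named were the 20 with the highest lowest-group mean, the 3 called members with the largest change in each direction of each comparison and the 3 nearest to each threshold, and from each list up to 4 genes with the largest differences. Other members and list genes were named after their values were seen, to account for every member or for their role. Of the members, 1 is counted in all totals but not reported here on its own. No p is given for members against F, since the rule used it. Symbols were matched for 14151 genes. The tests were tried on simulated counts. Depth was 6193659 to 58878377 reads on genes per sample; counting error was not given a separate interval. Where labels do not state separate cultures, p-values measure only the spread between these samples, which may be technical.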

Additional observations from a re-analysis of the deposited data

Results flagged for a closer look

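In 6 members every sample moved one way between FL6i and FLB2i in Epi-piPSC and the other way in pESCLC: both samples of the one medium were above both of the other, in opposite orders. These were 15% of the members, against 9.24% of all genes tested. Given as the effect in Epi-piPSC minus that in pESCLC, on the log2 scale, the difference was -2.85 for ENSSSCG00000008254 (SE 0.908, limma adjusted p = 0.138), -3.50 for SRRM4, the microexon splicing factor (SE 1.10, limma adjusted p = 0.135), -2.07 for BSN, the active zone scaffold (SE 1.02, limma adjusted p = 0.300) and -1.91 for CCDC184, a coiled-coil protein (SE 0.755, limma adjusted p = 0.209). These 4 were lower in FL6i in Epi-piPSC and higher in pESCLC. It was 1.2 for NEURL1B, a ubiquitin ligase of the Notch pathway (SE 0.440, limma adjusted p = 0.182) and 1.72 for ST8SIA1, the GD3 synthase (SE 0.351, limma adjusted p = 0.0557), both higher in FL6i in Epi-piPSC and lower in pESCLC. None of the 6 passed this test of the difference in limma or in edgeR. DESeq2 called 4 of them, ENSSSCG00000008254 (adjusted p = 0.038), NEURL1B (adjusted p = 0.0457), SRRM4 (adjusted p = 0.0445) and ST8SIA1 (adjusted p = 0.000276). In limma, 3 of the 6 (CCDC184, ENSSSCG00000008254 and ST8SIA1) were called without the first pESCLC-FL6i sample, 1 (ST8SIA1) without the second and 1 (SRRM4) without the first pESCLC-FLB2i sample. BSN was called under none of these alternatives.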

How the results depend on the processing

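Of 32 calls on members in the pairwise comparisons, 4 passed under every alternative (AMER2, KCNK10 and NOVA2 lower in Epi-piPSC in FL6i, ST8SIA1 lower in Epi-piPSC in FLB2i), and over 576 alternative values 437 kept the call, 139 did not pass and 0 changed direction; the cause was not tested. The alternatives for these calls included a required absolute log2 difference of at least 3, which no call with a smaller difference could pass. The number of members was 80 with means of at least 30 and below 20, 18 with at least 80 and below 15, 12 with at least 40 and below 5, 20 when both samples had to pass, 41 (40 shared) after TMM scaling, and 38 to 45 without 1 sample (36 to 40 shared). Between FL6i and FLB2i in Epi-piPSC, 2918 genes and 6 members were called; DESeq2 gave 4426 genes, an absolute log2 difference of at least 3 gave 895 genes and 1 member, a fit on all 14 samples 3 members, only the 4 samples compared 8697 genes and 26 members, and omitting 1 sample 181 to 5597 genes and 0 to 15 members. In pESCLC, 2 genes and 0 members were called; a pseudocount of 0.1 gave 4 genes and one of 5 gave 5, DESeq2 822 genes and 3 members, the log2 limit 1 gene, 14 samples 61 genes, 4 samples 0, and omitting 1 sample 0 to 3877 genes and 0 to 14 members. In FLB2i between origins, 1068 genes and 6 members became 2817 and 15 with DESeq2, 412 and 2 with the log2 limit, 1822 and 3 with 14 samples, and 10 to 3523 and 1 to 15 without 1 sample. In FL6i, 4258 genes and 20 members became 1386 and 9 with the log2 limit, 1771 and 11 with 4 samples, and 751 to 7658 and 5 to 26 without 1 sample. The interaction called 487 genes and 0 members, 2083 and 7 with DESeq2, 1250 genes with 14 samples, and 0 to 4128 and 0 to 16 without 1 sample. Against F, 8120 genes became 1290 with the log2 limit and 7041 to 9406 without 1 sample.

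The replicate numbers were not taken to pair the samples: the deviations of same-numbered samples correlated at -0.075 to 0.360, with 1 of 21 pairs of groups over 0.1. That pair was pESCLC-FLB2i and pESCLC-FL6i, whose first samples were both at passage 3 and whose second samples were at later passages. With the replicate block the interaction called 254 genes and the pESCLC comparison 0 genes; members called were 5 in Epi-piPSC, 0 in pESCLC, 6 in FLB2i, 19 in FL6i and 0 for the interaction. Other alternatives kept these counts of genes and members within 1.5 times. Some counts in the gene lists moved further, and not every such change is given. Depth limits low values most in the second pESCLC-FL6i sample, where 3 reads are 7.86 normalized counts. In fits without 1 sample a group of 1 is assumed to vary like the others.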
